A study of Mus musculus with 8 samples.

Results

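The comparison described here is that of XX mouse gonads lacking Kdm6b with XX wild type gonads at embryonic day 11.5. All genes with a mean of at least 10 normalized counts over the 4 XX libraries were included, which gave 17028 of the 48440 genes listed. The limit fell between Card14, with a mean of 10.001, and Gm44013, with a mean of 9.9996. The study had 8 libraries of polyadenylated RNA, 2 in each of 4 groups: XX Kdm6b-null, XX wild type, XY Kdm6b-null and XY wild type. Every library was made from 2 pairs of gonads pooled after the embryos had been sexed and genotyped. The labels give no treatment, strain, litter or deleted exon. They call the XX samples pre-granulosa cells, but describe whole gonads with no sorting. A p-value here sets the difference between groups against the spread among pools of a group, and that spread may be technical.

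Kdm6b encodes a demethylase that removes the repressive trimethyl mark from lysine 27 of histone H3, a mark laid down by Polycomb complexes at silent developmental genes. At this stage the XX and XY gonad are both a ridge of epithelial and mesenchymal cells over a growing vascular bed, and in XY embryos Sry starts the testis pathway. XX embryos have no Sry, so the XX comparison asks what loss of the enzyme does in a gonad where that pathway is not switched on.

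The deposited values are normalized counts, that is, counts per gene divided by 1 scale factor per library, with the XX libraries normalized apart from the XY ones. Depth was 19783667 and 19828638 counts in the XX Kdm6b-null libraries, against 19121394 and 19234359 in the XX wild type libraries. A value of 0 can hide up to 3 counts, worth 2.91 to 3.03 normalized counts, and this covers counting error only. The wild type pair was uneven. Over log2(normalized count + 1) of all genes tested, Pearson's r was 0.985 between the Kdm6b-null libraries and 0.963 between the wild type libraries, a description across genes. Wild type replicate 2 lay closer to the Kdm6b-null libraries (r = 0.981 and 0.978) than to wild type replicate 1. Replicate 1 was the farther of the pair from the Kdm6b-null mean for 10780 genes (63.3%). Both wild type values are therefore given for the genes described, and medians of gene lists are given against each wild type library. Of the genes linked to the labelled cell type, Foxl2 was low. This granulosa cell transcription factor had 0.996 and 4.04 normalized counts in the Kdm6b-null libraries and 13.6 and 4.05 in the wild type libraries, under the minimum for testing. The XX label held in all 4 libraries: Sry was at 0, and Xist, the RNA that coats the inactive X chromosome, had 38415 and 33217 normalized counts in Kdm6b-null and 49577 and 42771 in wild type libraries.

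Kdm6b itself (ENSMUSG00000018476.7, chromosome 11 at 69398508 to 69413675, GRCm38) had 1249 and 1125 normalized counts in the Kdm6b-null libraries, against 2218 and 2796 in the wild type libraries. The groups did not overlap, and the Kdm6b-null mean was 47.4% of wild type, so that transcript of the gene was still counted in the null. The log2 fold change was −1.07 (SE 0.14, limma adjusted p = 0.187). Kdm6bos, annotated on the other strand within it, was at 0 in both Kdm6b-null libraries and had 24.3 and 19.2 in the wild type libraries. Whether the counting used strand is not stated in the sources used here, so reads of these overlapping genes cannot be told apart for certain. Kdm6a, the X-linked paralog with the same enzyme activity, had 2075 and 1926 in Kdm6b-null and 1806 and 2133 in wild type libraries, and these values overlapped.

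With 2 libraries a group, limma's test on log2(normalized count + 1) called no gene at an adjusted p under 0.05 (0%), and the smallest adjusted p was 0.105. At an unadjusted p under 0.05 limma gave 2383 genes (14%), of which 1591 were higher (9.34%) and 792 lower (4.65%) in Kdm6b-null gonads. For 8425 genes (49.5%) the Kdm6b-null and wild type values did not overlap, 4590 of them higher (27%) and 3835 lower (22.5%). The split depends on the scaling: with libraries scaled to equal totals, 3620 were higher and 4978 lower. In the authors' deposited table DESeq2 called 407 of 14704 genes (2.77%), 286 higher (1.95%) and 121 lower (0.823%). Of those in the authors' deposited table, 406 had groups that did not overlap, 401 had an unadjusted limma p under 0.05 and all 407 had the same direction by limma. The gene of the 407 whose groups overlapped was Gcg, which encodes glucagon. It was at 0 in both Kdm6b-null libraries and in wild type replicate 1, and had 626 normalized counts in wild type replicate 2.

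Leaving out 1 wild type library changed the limma count, with the remaining library assumed to vary like the Kdm6b-null pair. Without wild type replicate 1 limma called 370 genes (2.17%), 229 higher (1.34%) and 141 lower (0.828%). Without wild type replicate 2 it called 3489 (20.5%), 2344 higher and 1145 lower. Only 244 genes (1.43%) were called against each wild type library alone in the same direction, 185 higher and 59 lower, and these comparisons share the Kdm6b-null libraries. Of the calls in the authors' deposited table, 220 were also called by limma without wild type replicate 1, which is 54.1% of theirs and 59.5% of the 370. Leaving out either Kdm6b-null library gave no limma call, with 719 and 625 genes at an unadjusted p under 0.05.

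**Figure D1:**
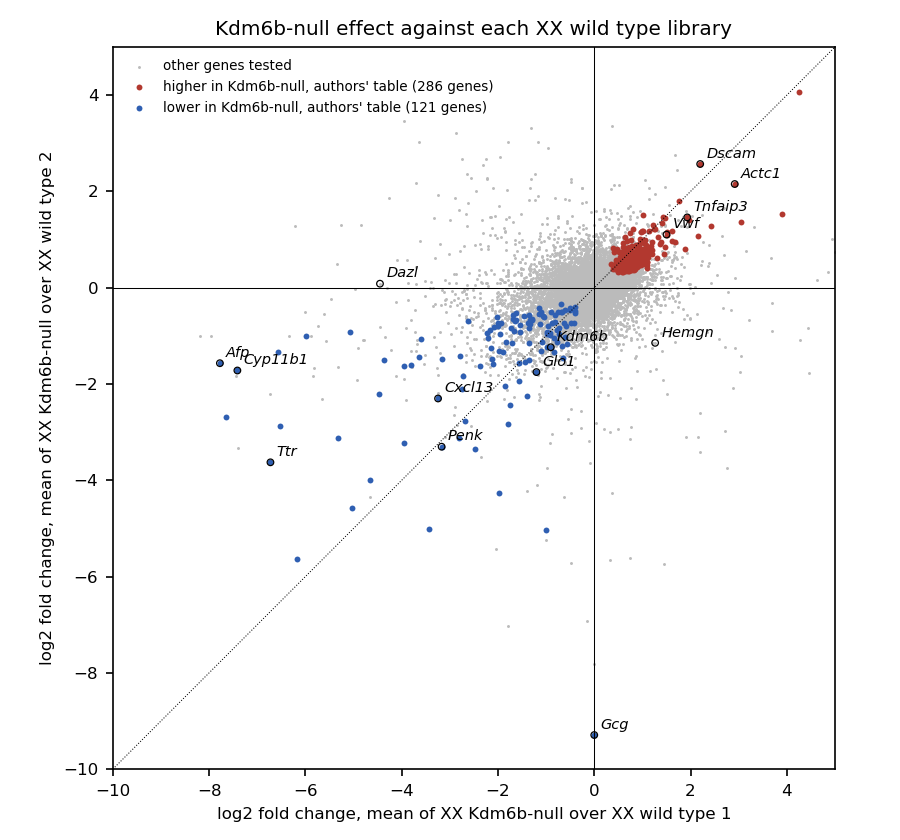
Log2 fold change of the Kdm6b-null mean against XX wild type replicate 1 (x axis) and against XX wild type replicate 2 (y axis) for the 17028 genes tested, on log2(normalized count + 1), with the 286 higher and 121 lower genes of the authors' deposited table in red and blue. Genes near the dotted line, such as Dscam and Penk, differ alike from both wild type libraries, whereas Afp, Cyp11b1 and Dazl differ mainly from replicate 1 and Gcg from replicate 2 alone.

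Genes of contractile cells gave the highest median of the 32 gene lists. The smooth muscle and pericyte list had 13 measured genes, with a median log2 fold change of 0.63, against 0.00 over all genes tested, and the median was 0.68 against wild type replicate 1 and 0.67 against replicate 2. Groups did not overlap for 11 genes that were higher and for 1 that was lower, where 27% and 22.5% of all genes tested did so. The authors' deposited table called 7 of the 13 higher and none lower, where it called 1.95% and 0.823% of all its genes. The same shares over all genes apply to the counts of every list below. In bulk gonads, more or fewer cells of a type and more or less RNA per cell cannot be told apart.

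Actin genes had some of the widest differences, among them Actc1 and Acta1, which are not on that list. Actc1 encodes cardiac alpha actin, which embryonic muscle of several kinds also makes. It had 1395 and 1796 normalized counts in the Kdm6b-null libraries, against 209 and 355 in the wild type libraries. Both Kdm6b-null values lay far above both wild type values, with a smallest gap of 1.97 on the log2 scale. The mean of the Kdm6b-null pair on that scale was 2.92 above replicate 1 and 2.15 above replicate 2. For Actc1 the log2 fold change was 2.54 (SE 0.28, limma adjusted p = 0.187). The value in the authors' deposited table was 2.50 (DESeq2 adjusted p = 6.1e-17). Acta1, skeletal muscle alpha actin, had 76.7 and 182 in Kdm6b-null and 34.0 and 33.4 in wild type libraries, so the groups did not overlap but the Kdm6b-null libraries differed from each other by more than the wild type pair. Acta2, the alpha actin of smooth muscle, had 5621 and 7529 in the Kdm6b-null libraries, against 2505 and 3381 in the wild type libraries, a log2 fold change of 1.16 (SE 0.21, limma adjusted p = 0.261). Its lowest Kdm6b-null value was above its highest wild type value. Actg2, the gamma actin of visceral smooth muscle, had 692 and 1064 against 424 and 379, again without overlap. Actins are near-identical in their coding parts, and the sources used here do not state how reads shared between them were counted.

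Other contractile genes were higher alongside the actins. Tagln, which encodes the actin-binding protein transgelin, had 2686 and 3998 in Kdm6b-null and 1571 and 1649.8 in wild type libraries. Cnn1, the actin-binding calponin of differentiated smooth muscle, had 365 and 564 against 162 and 253. Des, the intermediate filament desmin, had 1479 and 1326 against 767 and 758, and here both pairs were tight. Pericyte genes followed, with 2788 and 2814 against 1867 and 1759 for Rgs5, a regulator of G protein signalling, and 902 and 1024 against 599.6 and 491 for Cspg4, the NG2 proteoglycan. Tpm2 overlapped, and Mylk, the kinase that phosphorylates myosin light chain, was the member that was lower, with 879 and 953 in Kdm6b-null and 1243 and 1181 in wild type libraries. Within the Kdm6b-null pair, replicate 2 was the higher library for every gene of the list but Des. Palld, an actin-bundling protein outside the naming rule and picked after its values were seen, had 5651 and 5879 against 3024 and 3169.

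The promoters of the alpha actin genes are shown because a CArG box, the site bound by serum response factor in muscle genes, is a textbook feature of actin promoters. The windows run from 250 bases before to 50 bases after the transcript start, on the gene's strand, from RefSeq on GRCm38. Capitals mark a CArG box, found as an exact match to CCWWWWWWGG, where W is A or T, a pattern that reads the same on both strands. The windows are chr2:114052826-114053125 for Actc1, chr8:123894726-123895025 for Acta1 and chr19:34255324-34255623 for Acta2, all read on the minus strand. In Acta2 the window holds no exact match, which says only that this strict pattern is not in this window. Stretches close to the pattern, such as ccctatatgg and ccttgtttgg in that window, were not marked or counted.
Actc1: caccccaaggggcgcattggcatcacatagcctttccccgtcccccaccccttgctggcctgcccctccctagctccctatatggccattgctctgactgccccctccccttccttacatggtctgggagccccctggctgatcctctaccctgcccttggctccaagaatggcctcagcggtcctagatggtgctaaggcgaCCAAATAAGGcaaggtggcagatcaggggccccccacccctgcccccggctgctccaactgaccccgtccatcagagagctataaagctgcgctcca
Acta1: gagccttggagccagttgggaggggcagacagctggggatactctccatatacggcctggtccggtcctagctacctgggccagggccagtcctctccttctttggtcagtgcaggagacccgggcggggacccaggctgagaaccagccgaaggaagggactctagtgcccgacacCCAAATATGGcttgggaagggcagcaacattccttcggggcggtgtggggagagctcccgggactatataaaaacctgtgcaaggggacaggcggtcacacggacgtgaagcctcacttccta
Acta2: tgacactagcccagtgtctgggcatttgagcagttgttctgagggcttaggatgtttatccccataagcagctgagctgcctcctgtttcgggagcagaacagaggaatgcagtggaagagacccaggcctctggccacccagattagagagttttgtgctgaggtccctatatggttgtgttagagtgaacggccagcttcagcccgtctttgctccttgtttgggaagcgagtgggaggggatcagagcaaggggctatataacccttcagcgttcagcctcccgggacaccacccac
The box began 47 bases before the start in Actc1 and 73 bases before it in Acta1, and Myl9, a smooth muscle myosin light chain, held 1 at 161 bases before its start. A CArG box was present in 535 of all 32851 promoter windows (1.63%) and in 1.29% of the windows of genes tested. For the smooth muscle and pericyte list it was in 1 of 11 windows (9.09%), from 10 genes, too few windows for the share to be read. Among genes higher in the authors' deposited table it was in 7 of 294 windows (2.38%), and among genes lower there in 1 of 106 (0.943%). A match is a description of the sequence and does not show binding.

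**Figure D2:**
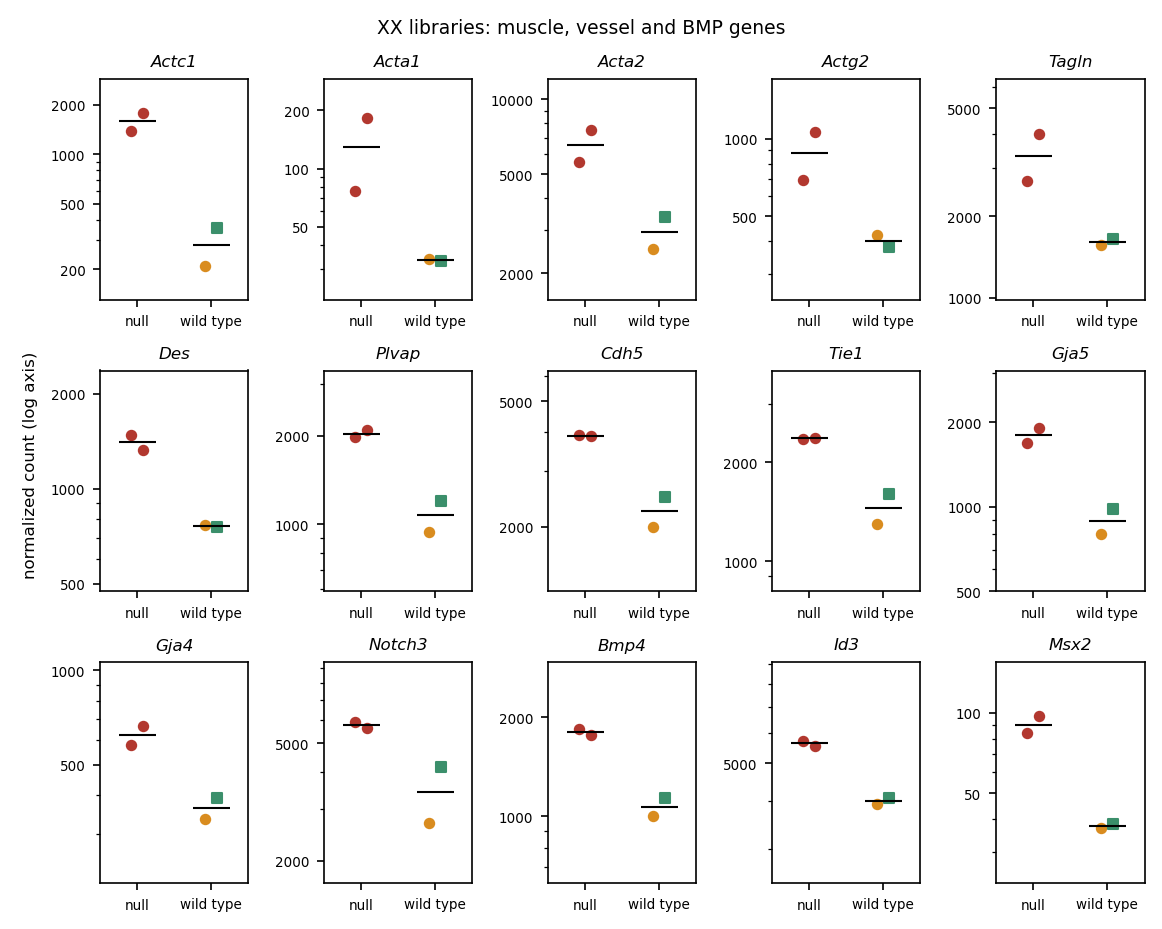
Normalized counts (log axis) of 15 genes in the 2 XX Kdm6b-null libraries (red circles) and in XX wild type replicate 1 (orange circle) and replicate 2 (green square), with bars at group means. In all 15 genes both Kdm6b-null values lie above both wild type values, as these genes were named by rules that take genes without overlap. Wild type replicate 1 is the lowest of the 4 libraries in most.

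Vessel genes formed the second group. Of 24 measured endothelial genes, 20 were higher in both Kdm6b-null libraries than in either wild type library and 1 was lower, where 27% and 22.5% of all genes did so. The median log2 fold change was 0.40, or 0.52 against wild type replicate 1 and 0.35 against replicate 2. The authors' deposited table called 5 of them higher, and limma without wild type replicate 1 called 4. Summed over the list, the level was 28171 and 27468 normalized counts in the Kdm6b-null libraries, against 19082 and 20972 in the wild type libraries. Cdh5, the cadherin that holds endothelial cells together, had 3904 and 3863 against 1998 and 2486, a log2 fold change of 0.80 (SE 0.13, limma adjusted p = 0.237, and 0.0195 without wild type replicate 1). Plvap, the protein of fenestral diaphragms, had 1980.0 and 2090.2 against 944 and 1204. For Tie1, an endothelial receptor kinase, the values were 2355 and 2374 in Kdm6b-null and 1294 and 1602 in wild type libraries. These groups were apart by more than the spread within either, but the genes were named for the widest gaps among members whose groups did not overlap. Pecam1, another defining endothelial marker, had 2388 and 2227 against 2229 and 2086 and overlapped, so the list did not move as 1 block. Esm1, a proteoglycan of sprouting tip cells, was the member that was lower, at 18.9 and 20.2 against 31.0 and 43.5. Vwf, the clotting factor stored in endothelial cells, was outside the naming rule and was picked after its values were seen. It had 3541 and 3909 in Kdm6b-null and 1314 and 1731 in wild type libraries, with a log2 fold change of 1.30 (SE 0.16, limma adjusted p = 0.187).

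Notch signalling shapes arteries and the smooth muscle around them. All 16 measured genes of the Notch and arterial list had positive log2 fold changes, and the median was 0.46 (0.55 against wild type replicate 1 and 0.35 against replicate 2). For 12 of them the groups did not overlap, where 27% of all genes were higher without overlap. Among receptors, Notch3, the receptor of vascular smooth muscle, had 5907 and 5629 in Kdm6b-null and 2689 and 4158 in wild type libraries, and Notch4, the endothelial receptor, 852 and 744 against 469 and 602. Among ligands, Dll4 had 344 and 291 against 211 and 253 without overlap, whereas Jag1, Jag2, Dll1 and Efnb2, an ephrin of arteries, overlapped. Of the target genes, Hey1 had 659.7 and 743 against 444 and 496 and Hey2 393 and 425 against 246 and 257. Both are transcriptional repressors switched on by Notch, and for both the groups were apart. Gja5, a connexin of arterial endothelium, gave the largest difference of the list. It had 1683 and 1916 against 798 and 983, a log2 fold change of 1.02 (SE 0.14, limma adjusted p = 0.206), and the connexin gene Gja4 had 579 and 665 against 336 and 390.4. The authors' deposited table called Notch3, Gja4 and Gja5 higher, where it called 1.95% of all its genes higher. Endothelial and smooth muscle markers moved in the same direction as the Notch list, and their part in it was not tested.

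BMP ligands pattern the mesenchyme of the ridge and the vessels. Of 18 measured genes of BMP signalling, 12 were higher without overlap and none lower, where 27% and 22.5% of all genes did so. The median log2 fold change of the list was 0.34 (0.51 against wild type replicate 1 and 0.26 against replicate 2). Bmp4 had 1845 and 1766 in Kdm6b-null and 1000.2 and 1137 in wild type libraries, a log2 fold change of 0.76 (SE 0.11, limma adjusted p = 0.206, and 0.0207 without wild type replicate 1). The ligand gene Bmp5 had 565 and 595 against 272 and 427. Of the receptors, Bmpr2 had 2941 and 2964 against 1970.4 and 2561, while Bmpr1b overlapped. Among target genes, Id3, an inhibitor of differentiation factors, had 5705 and 5555 against 3934 and 4082, Smad6, a feedback inhibitor, had 1051 and 1128 against 527 and 775, and Msx2, a homeobox gene, had 83.7 and 97.0 against 36.9 and 38.4. In each the Kdm6b-null values lay above both wild type values, but these genes were named from members whose groups did not overlap. Bmp4, Id3 and Smad6 were the 3 members that the authors' deposited table called higher, where it called 1.95% of all its genes higher. Bmp7, made by duct epithelium, and Grem1, a secreted BMP antagonist, overlapped.

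Of 23 collagen and matrix genes, 13 were higher and 4 lower without overlap, where 27% and 22.5% of all genes did so. The median of the list was 0.21 (0.16 against wild type replicate 1 and 0.31 against replicate 2). The authors' deposited table called 5 of them higher, where 1.95% of all its genes were. The basement membrane genes Col4a1 and Lama1 were on the higher side, as was Fn1, fibronectin. Col4a1 had 11614 and 13169.5 in Kdm6b-null and 6963 and 8598 in wild type libraries. Lama1 had 2353 and 2931 against 1520.2 and 1611, and Fn1 had 36703 and 38897 against 20188 and 20512. The Fn1 log2 fold change was 0.89 (SE 0.15, limma adjusted p = 0.253), and it was nearly the same against wild type replicate 1 (0.90) and replicate 2 (0.88). Col5a3, a collagen gene outside the list, had 266 and 280 against 60.2 and 128 and was called higher in the authors' deposited table (DESeq2 adjusted p = 0.00784). Among members that were lower, Dcn, the proteoglycan decorin, had 479 and 497 in Kdm6b-null libraries, against 2438 and 792 in wild type replicates 1 and 2, Lum, lumican, had 335 and 358 against 1318 and 442, and Col6a3 had 785 and 681 against 2679 and 794. Against replicate 1 and replicate 2, the differences on the log2 scale were −2.32 and −0.70 for Dcn, −1.93 and −0.35 for Lum, and −1.87 and −0.12 for Col6a3. Without wild type replicate 1, limma's adjusted p was 0.0340 for Dcn, 0.191 for Lum and 0.617 for Col6a3.

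Hox genes are the classical Polycomb targets that set position along the body axis. Of 36 measured members, 16 were higher without overlap and none lower, where 27% and 22.5% of all genes did so. The median was 0.45 against wild type replicate 1 but 0.09 against replicate 2, so the median shifted with the choice of wild type library. Some members did not depend on that choice. Hoxc9 had 666 and 559.7 in Kdm6b-null and 276 and 268 in wild type libraries, a log2 fold change of 1.16 (SE 0.14, limma adjusted p = 0.187), and Hoxa7 had 757 and 749.6 against 481 and 485. Hoxc6 had 1438 and 1707 against 897 and 669, and Hoxd3 450.4 and 386 against 248 and 235. Posterior members such as Hoxd12, at 192 and 25.3 in Kdm6b-null and 174 and 182 in wild type libraries, and Hoxa13, at 215 and 66.7 against 119 and 138, differed more between the Kdm6b-null libraries than between groups. The authors' deposited table called 5 Hox genes higher, where it called 1.95% of all its genes higher. Of 27 genes for the enzymes and complexes of H3K27 methylation, 8 were higher and 3 lower without overlap, and the median was 0.02 (0.12 against wild type replicate 1 and −0.02 against replicate 2). Phc2, a subunit of Polycomb repressive complex 1, had 4277 and 4433 against 2837 and 3202. Foxc1 and Foxc2, transcription factors of mesenchyme and vessels picked after their values were seen, had 2439 and 2422 against 1203 and 1263 and 1420.0 and 1224 against 679 and 656, with limma adjusted p = 0.187 for both.

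Factors that build the gonad showed small differences. Of 14 genes for the bipotential gonad, 5 were higher and 1 lower without overlap, and the median log2 fold change was 0.12 (0.02 against wild type replicate 1 and 0.19 against replicate 2). Emx2, a homeobox gene needed for the ridge to form, had 2035 and 2012 in Kdm6b-null and 1534 and 1139 in wild type libraries. Cited2, a cofactor that raises Sry in XY gonads, had 1276 and 1264 against 839 and 849.7. Wt1, the zinc finger gene of gonad and kidney, had 4279 and 4219 against 3952 and 3032, and Gata4 had 1561 and 1569.9 against 1018 and 1522. These values did not overlap, but for Gata4 wild type replicate 2 was close to the Kdm6b-null pair. Nr5a1, the nuclear receptor of steroid-forming organs, had 597 and 567 against 610.2 and 313, and Lhx9 1101 and 1167 against 1381 and 918, and in both the wild type libraries lay on either side of the Kdm6b-null ones. Emx2 and Cited2 were the list's 2 calls, both higher, in the authors' deposited table.

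The kinase and insulin routes that feed Sry in XY gonads were also measured here, where Sry is absent. Of their 13 genes, 9 were higher and 2 lower without overlap, and the median was 0.19, close to its values against wild type replicate 1 (0.22) and replicate 2 (0.21). Map3k4, the kinase at the head of the p38 route, had 2238 and 2328 in Kdm6b-null and 1426 and 1647 in wild type libraries, and Map2k6, the kinase below it, 829 and 852 against 491 and 714. The receptor gene Igf1r had 4500.2 and 4414 against 3588 and 3798, and Igf2r, which clears insulin-like growth factor 2, had 14205 and 14496 against 8704 and 10159. These 4 were named for the widest gaps among members whose groups did not overlap, and in each the Kdm6b-null values were the higher. The authors' deposited table called Map3k4 and Igf2r higher, with DESeq2 adjusted p = 0.0101 and 9.2e-04. Insrr, an orphan receptor of the insulin family, was lower, with 8.97 and 3.03 against 38.8 and 13.1.

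Ovary genes did not stand apart. Of 12 measured, 3 were higher and 2 lower without overlap, the median was −0.17 (−0.26 against wild type replicate 1 and −0.04 against replicate 2), and neither the authors' deposited table nor limma without wild type replicate 1 called any. Wnt4, a signal of ovary development, had 1430.0 and 1875 in Kdm6b-null and 1411 and 1109.6 in wild type libraries, and replicate 1 of each genotype was nearly equal. Rspo1, which strengthens Wnt signals, had 594 and 393 against 619 and 669.6, with both Kdm6b-null values below the wild type ones but widely spaced. Fst, the activin antagonist follistatin, had 129.5 and 239 against 296 and 217 and overlapped. Irx3, a homeobox gene of pre-granulosa cells, had 119 and 51.5 against 220.2 and 211, a log2 fold change of −1.45 (SE 0.40, limma adjusted p = 0.287). Testis genes gave 5 higher and 3 lower without overlap of 14 measured, a median of 0.21 (0.20 against wild type replicate 1 and 0.03 against replicate 2) and no call in the authors' deposited table. Sox9, the factor that Sry switches on, had 923 and 828 against 515 and 769 and so was not lower in XX Kdm6b-null gonads. Fgf9, the growth factor that opposes Wnt4 in XY gonads, had 68.8 and 85.9 against 138 and 202, a log2 fold change of −1.11 (SE 0.26, limma adjusted p = 0.261). In the authors' deposited table its DESeq2 adjusted p was 0.0774.

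**Figure D3:**
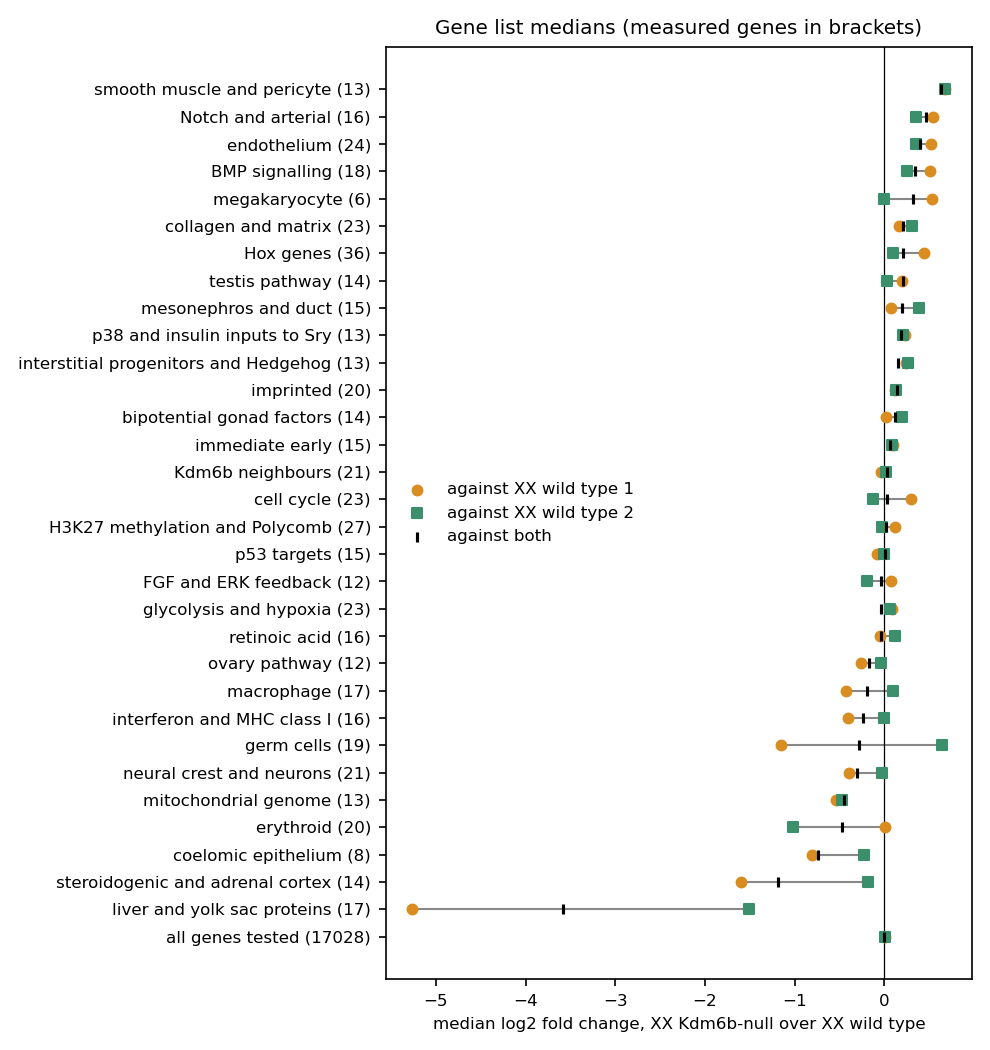
Median log2 fold change of each gene list, XX Kdm6b-null over XX wild type, against wild type replicate 1 (orange circles), replicate 2 (green squares) and both (black ticks), with the number of measured genes in brackets. Smooth muscle, vessel, Notch and BMP lists lie above 0 against both wild type libraries, while liver, adrenal, germ cell and erythroid lists shift with the library chosen.

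Among single genes, Penk had the clearest difference downward. It encodes the precursor of enkephalin peptides, and it had 21.9 and 26.3 normalized counts in the Kdm6b-null libraries, against 224 and 246 in the wild type libraries. Here both pairs were tight, and the Kdm6b-null mean was 10.3% of wild type. The log2 fold change was −3.24 (SE 0.23, limma adjusted p = 0.105, and 0.0134 without wild type replicate 1). Cxcl13, a chemokine for B cells, had 39.9 and 39.4 in Kdm6b-null and 384 and 199 in wild type libraries. Celf2, an RNA-binding protein, had 373 and 393 against 753 and 720.2, and Socs2, a feedback inhibitor of cytokine signals, 124 and 128 against 249 and 295. Syt6, a synaptotagmin, had 14.0 and 16.2 against 107 and 67.8, and Habp2, a secreted protease, 7.97 and 15.2 against 66.0 and 121. For all of these, the lower wild type value was above the higher Kdm6b-null value. Genes such as Cxcl13 and Habp2 were named for the width of that gap, so it is not a separate result. Sfrp5, a secreted Wnt antagonist, had 2.99 and 5.05 against 18.4 and 93.1, so its size rests on wild type replicate 2.

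Upward, Dscam, a cell adhesion molecule of neurons, had 168 and 178 in the Kdm6b-null libraries, against 36.9 and 28.3 in the wild type libraries. Neither pair varied much, and the log2 fold change was 2.38 (SE 0.24, limma adjusted p = 0.187, and 0.0134 without wild type replicate 1). Tnfaip3, an inhibitor of NF-kB signalling, had 323 and 397 against 93.1 and 129, and Nup62cl, an X-linked relative of a nuclear pore protein, 355 and 377 against 92.2 and 137. Clstn2 and Cdh18, both cadherin family members of neurons, had 919.8 and 1010.2 against 415 and 388 and 238 and 248 against 101 and 104. Lgr4, the receptor for Rspo proteins, had 3655 and 3573 against 1872 and 2120.2, a log2 fold change of 0.86 (SE 0.10, limma adjusted p = 0.187). Kit, the receptor of germ cells and mast cells, had 2347 and 2080.1 against 1070.1 and 1299. In these 7 genes the groups did not overlap, but Dscam, Tnfaip3, Nup62cl, Clstn2 and Cdh18 were named for the width of that gap. Kit was named from list members whose groups did not overlap, so for these genes the lack of overlap is not a separate result. Mpo, myeloperoxidase of granulocyte precursors, had 153 and 119 against 15.5 and 51.6, Npbwr1, a neuropeptide receptor, 75.7 and 133 against 5.82 and 34.4, and Pou3f2, a neural factor, 102 and 104 against 18.4 and 41.5. All 3 were lower in wild type replicate 1 than in replicate 2, and against replicate 2 alone their differences were 1.37, 1.52 and 1.29 on the log2 scale. The largest ratio among calls higher in the authors' deposited table was that of a predicted gene, Gm6166, which lies outside the naming rule. It had 216 and 189 in Kdm6b-null and 9.70 and 11.1 in wild type libraries, and reads of such a gene may be shared with a near copy.

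Transcripts of other tissues marked wild type replicate 1, and some were also found in replicate 2. All 17 liver and yolk sac genes measured had negative log2 fold changes, 13 without overlap, and their sum was 186.3 and 186.9 normalized counts in the Kdm6b-null libraries, against 16473 and 632 in wild type replicates 1 and 2. Afp, the fetal serum protein alpha-fetoprotein, had 43.8 and 56.6 in Kdm6b-null libraries, against 11142 and 149.7 in wild type. Apoa1, of lipoprotein particles, had 6.98 and 5.05 against 1398 and 43.5, and Ttr, a carrier of thyroid hormone, 6.98 and 8.08 against 900.3 and 104. For these genes replicate 2 was also above both Kdm6b-null libraries, but by a much smaller amount. Fgb and Apoa4 were at 0 in both Kdm6b-null libraries. The authors' deposited table called 6 of the 17 lower. Rbp4, a retinol carrier, was less uneven, with 9.96 and 15.2 against 205 and 123, and Gc had 0 and 6.06 against 85.4 and 62.7. Gcg, at 626 normalized counts, was found in wild type replicate 2 alone. Leaving out replicate 1 therefore does not leave out all such transcripts.

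Adrenal cortex genes showed the same unevenness. Cyp11b1, which makes corticosteroids, had 1.99 and 1.01 in Kdm6b-null libraries, against 417 and 7.08 in wild type, and Cyp21a1 had 0.996 and 1.01 against 189 and 4.05. Hsd3b1 had 46.8 and 40.4 against 582 and 41.5, so that only replicate 1 was high, whereas the related Hsd3b6 had 158 and 134 against 384 and 697 and was higher in both wild type libraries. Reads of the similar Hsd3b genes may be split in an uncertain way. Over 14 steroidogenic genes the median was −1.60 against replicate 1 and −0.18 against replicate 2. Mc2r, the receptor for adrenocorticotropic hormone, went the other way, at 155 and 185 against 120.3 and 71.8. Whether the adrenal and liver transcripts in replicate 1 bear on other differences of that library was not tested.

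Germ cell genes depended on the wild type library. Of 19 measured, 13 overlapped, of which 8 had both Kdm6b-null values between the wild type libraries, 4 were lower and 2 higher, and the median was −1.15 against wild type replicate 1 and 0.64 against replicate 2. Dazl, an RNA-binding protein of germ cells, had 36.9 and 11.1 in Kdm6b-null and 468 and 19.2 in wild type libraries. Ddx4, the vasa helicase, had 49.8 and 45.5 against 264 and 11.1, and Pou5f1, the pluripotency factor, 98.7 and 85.9 against 216 and 25.3. For the last 2 the wild type libraries lay on either side of the Kdm6b-null pair, so no direction can be given. Red cell genes were uneven the other way, with a list median of 0.01 against replicate 1 and −1.02 against replicate 2. Hemgn, of erythroid nuclei, had 726 and 685 in Kdm6b-null libraries, against 293 and 1562 in wild type replicates 1 and 2. The globin gene Hbb-y differed from this. Hbb-y, embryonic beta-like globin, had 54605 and 53299 in Kdm6b-null and 114162 and 118333 in wild type libraries, with all 4 values in 2 tight pairs and a log2 fold change of −1.11 (SE 0.23, limma adjusted p = 0.261). Hbb-bs was uneven, with 806 and 342 in Kdm6b-null libraries, against 5101 and 1683 in wild type replicates 1 and 2. Reads of the adult globins Hba-a1 and Hba-a2, or Hbb-bs and Hbb-bt, may be shared between near-identical copies.

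**Figure D4:**
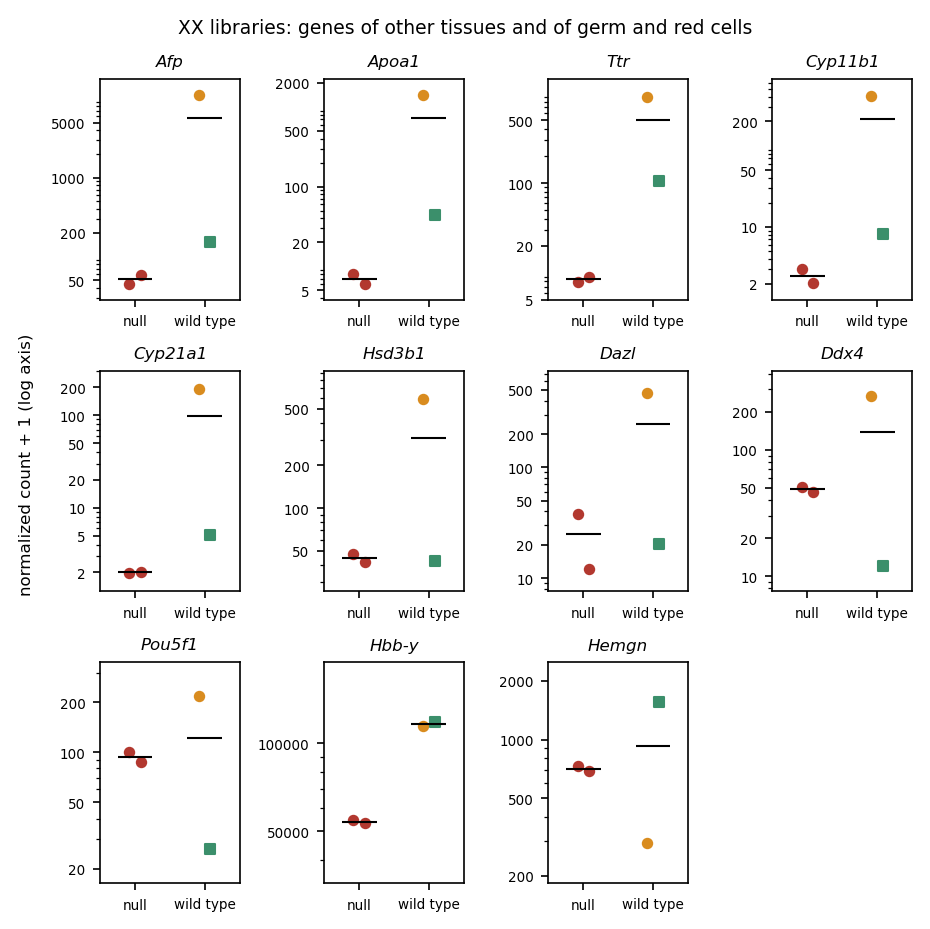
Normalized count + 1 (log axis) of 11 genes in the 2 XX Kdm6b-null libraries (red circles) and in XX wild type replicate 1 (orange circle) and replicate 2 (green square), with bars at group means. Liver, adrenal and germ cell genes are high in wild type replicate 1, Hemgn is high in replicate 2, and Hbb-y is alike in both.

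Mitochondrially encoded transcripts were lower. Of 13 measured, 11 were lower without overlap and none higher, where 22.5% and 27% of all genes did so. The medians were −0.54 against wild type replicate 1 and −0.47 against replicate 2. The authors' deposited table called 5 of them lower, where 0.823% of all its genes were. The ribosomal RNA mt-Rnr2 had 4571 and 4281 in Kdm6b-null and 11335 and 7337 in wild type libraries, and mt-Nd1, of respiratory complex I, had 44650.1 and 46172 against 71821 and 64566. Mitochondrial genes took 1.99 and 2.02% of the Kdm6b-null libraries, against 3.12 and 2.55% of the wild type libraries. The part of this difference in other results was not tested.

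Genes of the surface epithelium of the gonad were partly lower. Of 8 measured, 5 were lower and 1 higher without overlap, and the median was −0.73 (−0.81 against wild type replicate 1 and −0.23 against replicate 2). Upk1b, a uroplakin, had 124 and 86.9 in Kdm6b-null and 305 and 196 in wild type libraries, and Nkain4 90.7 and 75.8 against 164 and 158, but Upk3b overlapped at 1342 and 1711 against 1749 and 1365. Lrrn4, a leucine-rich repeat protein of mesothelium, was higher, at 607 and 593 against 439 and 432. Among 20 imprinted genes 10 were higher and 2 lower without overlap, where 27% and 22.5% of all genes did so. Their median was 0.14 (0.11 against wild type replicate 1 and 0.13 against replicate 2). Peg10 had 24338 and 27989.8 against 8169 and 13516, Peg3 73388 and 82438 against 39004 and 52757, and Zim1, beside Peg3, 7768 and 10351 against 5902 and 6193. These 3 were the list's calls in the authors' deposited table. Phlda2, which restrains placental growth, was lower, at 14.0 and 12.1 against 75.7 and 28.3, with replicate 1 the higher wild type value.

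Of the 21 measured neighbours of Kdm6b on its chromosome, 6 were higher and 4 lower without overlap, and their median log2 fold change was 0.03 (−0.04 against wild type replicate 1 and 0.02 against replicate 2). The authors' deposited table called 1 of these neighbours higher and 0 lower. That was Fxr2, with 3068 and 3053 in Kdm6b-null and 2140 and 2289 in wild type libraries (DESeq2 adjusted p = 0.0210). Interstitial progenitor and Hedgehog genes had 7 higher and 1 lower without overlap of 13 measured, with a median of 0.15 (0.24 against wild type replicate 1 and 0.27 against replicate 2). Nr2f1, an orphan nuclear receptor of mesenchyme, had 4485 and 4429.9 in Kdm6b-null and 2368 and 2973 in wild type libraries, whereas the Hedgehog targets Gli1, at 1647 and 1571 against 1624 and 2006, and Ptch1, at 3149.9 and 3056 against 1768 and 4418, overlapped. Mesonephros and duct genes had 4 higher and 3 lower of 15, with a median of 0.20 (0.08 against wild type replicate 1, 0.38 against replicate 2, and −0.021 without Kdm6b-null replicate 2). Macrophage genes had 2 higher and 5 lower of 17, and their median of −0.20 changed sign with the wild type library, being −0.43 against replicate 1 and 0.09 against replicate 2. Megakaryocyte genes had 2 higher and none lower of 6, with a median of 0.32, or 0.53 against replicate 1 and 0.00051 against replicate 2. Neural crest and neuron genes had 1 higher and 4 lower of 21, with a median of −0.30 that was −0.40 against replicate 1 and −0.02 against replicate 2. Interferon and MHC class I genes had none higher and 7 lower of 16, with a median of −0.24, or −0.40 against replicate 1 and −0.0067 against replicate 2. The cell cycle median of 0.03 lay between 0.30 against replicate 1 and −0.12 against replicate 2, and that of FGF feedback genes (−0.03) between 0.07 and −0.20. Medians were also near 0 for glycolysis and hypoxia (−0.04), p53 targets (0.00) and retinoic acid genes (−0.04), and the last was 0.12 against replicate 2. That of immediate early genes was 0.06, or −0.0060 with libraries scaled to equal totals. Of 12 measured FGF feedback genes, 3 were higher and 2 lower without overlap. Etv4, a target of FGF signals, had 332 and 196 against 429 and 458, and Spry4, an FGF feedback inhibitor, 153 and 132 against 221 and 226, both lower without overlap.

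The XX and XY comparisons use separate libraries, and the difference between them was tested by limma in 1 fit of all 8. None of 17282 genes passed (0%), the smallest adjusted p was 0.236, and 1443 genes (8.35%) had an unadjusted p under 0.05. The contractile and vessel genes are given for both sexes. Over the smooth muscle and pericyte list the median log2 fold change was 0.63 in XX and −0.26 in XY, over endothelial genes 0.40 and −0.23, and over Notch and arterial genes 0.46 and −0.24. The XY medians were not taken against each wild type library, and the XY wild type pair was uneven for some of these genes. Acta2 in XY had 4778 and 2864 in Kdm6b-null, against 3541 and 7771 in wild type replicates 1 and 2. Cdh5 in XY had 3212 and 2805 against 2871 and 4256, so in both the groups overlapped. Actc1 in XY gonads had 843 and 549.6 normalized counts in Kdm6b-null, against 653 and 1743 in wild type libraries, so its XY groups overlapped, and the XX minus XY difference was 3.18 (SE 0.64, limma adjusted p = 0.575). Gja5 in XY had 1135 and 549.6 against 1126 and 1954, with a difference of 1.93 (SE 0.50, limma adjusted p = 0.575). Penk in XY was low in every library, at 29.3 and 25.7 in Kdm6b-null and 29.7 and 17.9 in wild type. The 2 XX wild type values stood alone there, and the difference was −3.48 (SE 0.42, limma adjusted p = 0.278).

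Some genes with small p-values for the sex difference had groups apart in both sexes, in opposite directions, unlike Penk, Lgr4 and Celf2, whose log2 fold changes in XY were 0.24, −0.11 and 0.02. Glo1, the glyoxalase that detoxifies methylglyoxal (chromosome 17 at 30592866 to 30612659), had 1352 and 1432 in XX Kdm6b-null, against 3199.6 and 4692 in XX wild type libraries. In XY libraries it had 4147 and 3797 in Kdm6b-null, against 1487 and 1995 in wild type. Within each sex the groups did not overlap, the log2 fold changes were −1.48 in XX and 1.20 in XY, and the difference was −2.68 (SE 0.28, limma adjusted p = 0.236). The neighbouring gene Dnah8, a dynein heavy chain of cilia (30624354 to 30875264), had log2 fold changes of −1.94 in XX and 1.72 in XY. Rps18, a ribosomal protein gene farther along the chromosome (33951999 to 33956001), had −0.94 and 0.92, and copies of it elsewhere in the genome make its count uncertain. The MHC class I genes H2-K1 and H2-D1, also on chromosome 17, had XX values of 0.49 and 0.50 with overlap, and XY values of −1.17 and −1.13. On chromosome 7, Hbb-bt had −1.97 in XX and 2.45 in XY, from XX values of 953 and 392 in Kdm6b-null against 2162 and 2670.4 in wild type, and XY values of 1289.5 and 1667 in Kdm6b-null against 193 and 371 in wild type libraries. The authors' deposited tables called Glo1, Dnah8 and Rps18 lower in XX and higher in XY, each by DESeq2 within its sex. The labels give no strain or litter for the pools, and whether these have a part in the values of linked genes was not tested.

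**Figure D5:**
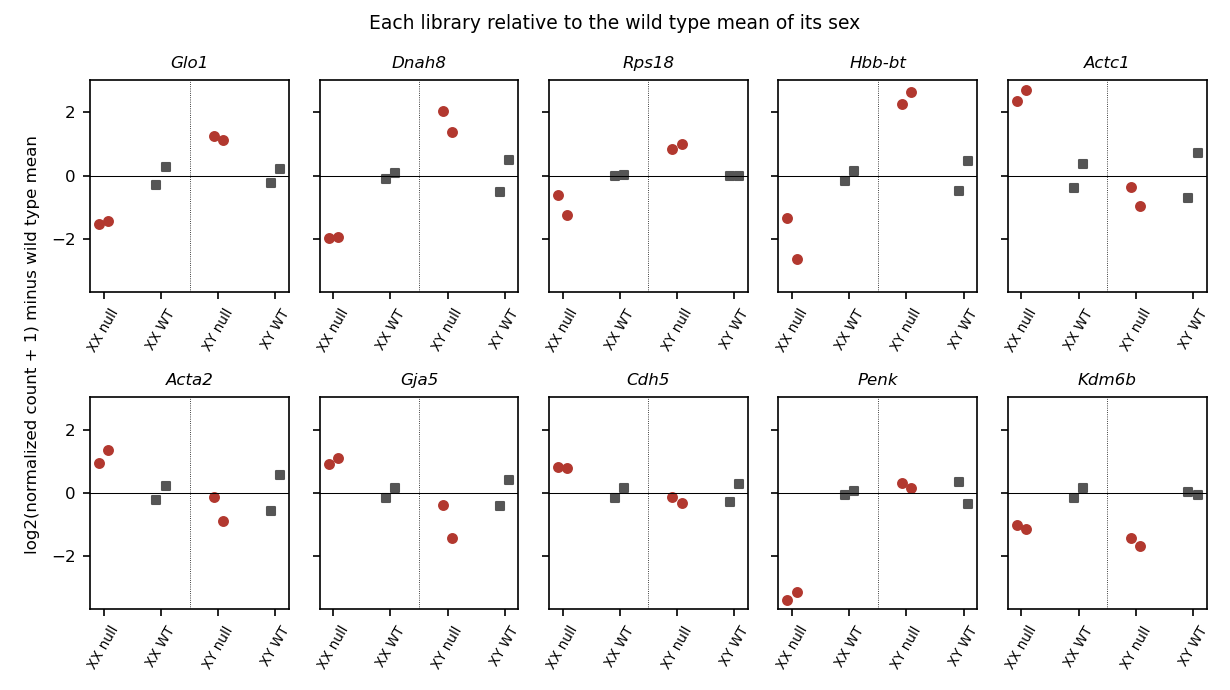
Log2(normalized count + 1) of 10 genes in each library minus the wild type (WT) mean of its sex, with Kdm6b-null (null) libraries as red circles and wild type libraries as grey squares. Glo1, Dnah8, Rps18 and Hbb-bt lie below wild type in XX and above it in XY, Actc1, Acta2, Gja5 and Cdh5 lie above the wild type mean in XX and below it in XY, and Kdm6b is below wild type in both sexes.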

How the data were processed

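Polyadenylated RNA was read in pairs of 100 bases on a DNBSEQ-G400, per the labels' protocols. Tools named in the submitters' processing notes are cutadapt 4.9 for trimming adapters, STAR 2.7.11 (aligner), DESeq2 2.11.40.8 and featureCounts 2.0.8, on GRCm38 (mm10). The sources used here do not state strand or multimapping settings, the annotation release or filters. Signal in the deposited tables is a count divided by the authors by 1 size factor per library, and XX and XY libraries were normalized apart. The authors' deposited DESeq2 comparison of Kdm6b-null with wild type lists a log2 fold change, its standard error, a Wald score (not used) and raw and adjusted p-values. As the XX table of it lacks a header, the order of its columns was taken from the XY table and checked against the normalized counts.

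Groups and replicate numbers came from sample titles, and 0 value columns were left over. In every library 100% of the values above 0 were whole multiples of 1 step (0.970 to 1.03 normalized counts), within 1e-06 of the multiple, and depths were read from these steps. Tests were run with limma 3.58.1 (R 4.3.3) and its variance trend on log2(normalized count + 1), a scale on which changes of low genes come out too small, and Benjamini-Hochberg adjustment at 0.05 over 17028 genes. Residual degrees of freedom were 2, and the prior degrees of freedom 3.35. The XX minus XY difference was fitted over all 8 libraries. The limma script was checked on simulated data. Count models on reads recovered from the steps were not run: the criterion set for using such reads needs a step clearly different from 1, which 3 of the 8 libraries met.

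The 32 lists of 560 genes (559 matched by symbol, 535 measured) and the genes included were chosen with earlier results of these data known. Genes named were Kdm6b, Kdm6bos, Sry, Kdm6a, Wnt4, Rspo1, Foxl2, Fst, Nr5a1, Gata4, Wt1, Lhx9 and Sox9, the 15 genes in each direction with the widest gap between groups, the 10 in each direction with the largest change among the authors' calls, up to 4 members of each list, and the 10 with the smallest p for the sex difference. List members were those with the widest gaps among members whose groups did not overlap. Where a list had none, those with the largest absolute log2 fold change were taken. Genes named by a gap or from a list were thus picked for a difference and do not stand for the list as a whole. A group mean of at least 50 was required, and predicted genes were passed over. Some genes that this rule names are not reported here. Further members of a list are given as examples of its range, chosen after their values were seen.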

Additional observations from a re-analysis of the deposited data

How the results depend on the processing

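The count of 0 limma calls held with pseudocounts of 0.5 and 5, no filter on low values, a mean of at least 50, scaling to equal totals, quantile normalization and no variance trend. It was 10 (5 higher, 5 lower) with all 8 libraries in 1 fit. With a replicate block, limma called 2 genes (1 higher, 1 lower). The replicate numbers are not known to pair the samples, as deviations of same-numbered XX libraries correlated at −0.062. Leaving out 1 library gave 0 to 3489 calls (370 when XX wild type replicate 1 was left out, 3489 when replicate 2 was). The count of XX minus XY calls was 0 to 29, where the 29 came without XX wild type replicate 2. Genes whose groups did not overlap numbered 6938 (4200 higher, 2738 lower) at a mean of at least 50, 11744 (5624, 6120) with no filter and 8157 (4387, 3770) with quantile normalization. DESeq2 and edgeR on recovered reads were not run.

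With libraries scaled to equal totals, which shifted the median of all genes to −0.064, list medians were 0.12 for the p38 and insulin inputs, −0.24 for ovary, −0.10 for glycolysis, −0.0060 for immediate early and 0.073 for imprinted genes. Quantile normalization gave −0.072 for ovary and −0.15 for retinoic acid genes. A mean of at least 50 gave −0.46 for steroidogenic and −0.54 for surface epithelium genes, and no filter gave −0.58 for mitochondrial genes.

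Leaving out 1 library at a time, the median ranged from 0.62 to 0.80 for smooth muscle, 0.35 to 0.52 for endothelium, 0.35 to 0.55 for Notch, 0.26 to 0.51 for BMP, 0.18 to 0.26 for p38 and insulin inputs, 0.17 to 0.27 for interstitial, 0.11 to 0.18 for imprinted, 0.092 to 0.46 for Hox, 0.027 to 0.28 for testis, 0.00051 to 0.53 for megakaryocyte and 0.0020 to 0.097 for immediate early genes. It ranged from −5.26 to −1.51 for liver, −1.60 to −0.18 for steroidogenic, −0.81 to −0.23 for surface epithelium, −0.52 to −0.021 for neural, −0.40 to −0.0067 for interferon and MHC and −0.26 to −0.030 for ovary genes. It took both signs for germ cells (−1.15 to 0.64), erythroid (−1.02 to 0.012), macrophage (−0.43 to 0.095), cell cycle (−0.12 to 0.30), FGF (−0.20 to 0.069), mesonephros and duct (−0.021 to 0.38), H3K27 methylation and Polycomb (−0.022 to 0.12), p53 targets (−0.078 to 0.035), retinoic acid (−0.051 to 0.12), glycolysis (−0.043 to 0.088) and Kdm6b neighbour genes (−0.053 to 0.077).

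Among the 166 named genes, 3 changed sign with equal totals and with quantile normalization: Kdm6a (−0.039 and −0.11), Lhx9 (−0.055 and −0.075) and Spred1 (−0.0052 and −0.079). Leaving out 1 library, the sign also changed for Kdm6a, from −0.094 to 0.15, Lhx9, from −0.28 to 0.30, Nr5a1, from −0.069 to 0.89, and Ppbp, from −0.17 to 1.43, the extremes coming without wild type replicate 1 or replicate 2. Without wild type replicate 1, limma called 56 of the named genes, and without replicate 2 it called 125. The cause of these changes was not tested. At this depth, genes of a few counts cannot be told from 0.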

Other observations

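A few genes outside the lists are given as values. Ros1, a receptor kinase of epithelial cells, had 171 and 97.0 normalized counts in XX Kdm6b-null libraries, against 45.6 and 46.5 in XX wild type libraries. The authors' deposited tables called Ros1 higher in both sexes, with DESeq2 adjusted p = 0.0323 in XX and 1.0e-06 in XY. Cartpt, a neuropeptide precursor, had 4.98 and 0 normalized counts in the XX Kdm6b-null libraries, against 97.0 and 20.2 in XX wild type replicates 1 and 2. Ugt2b34, a glucuronosyltransferase, had 1.99 and 4.04 in the XX Kdm6b-null libraries, against 40.7 and 124 in the XX wild type libraries, with replicate 2 the higher of the wild type pair.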
